A study of Mus musculus with 6 samples.

Results

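The genes described here are 35 genes of ribosome biogenesis and MYC-driven growth in B16-F3, a mouse melanoma cell line, compared between its high-pigmented (HPC) and its low-pigmented (LPC) cells. They were taken by gene symbol from the deposited table of 22740 genes: nucleolar proteins, RNA polymerase I subunits and factors, and growth genes known as targets of the transcription factor MYC. All 35 were found and all 35 passed the filter on low counts, among 11921 genes tested. The sorted groups were HPC, with 3 libraries, and LPC, with 3 libraries. Both came from cells of that line with no drug or gene change named in the labels, grown in serum-containing medium and separated by flow cytometry through the light scatter of melanin, so the groups differ in pigment content and in whatever else varies with it. The labels name no separate culture or sort for the libraries numbered 1, 2 and 3. The p-values therefore rest on the spread among 6 libraries, and that spread may be technical. Libraries were made from RNA 3′ ends (QuantSeq), so each read counts a transcript end. Levels are given as CPM, reads scaled to a common library size after TMM scaling, a correction for library composition.

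Ribosomes are assembled in the nucleolus. RNA polymerase I transcribes the long precursor of the ribosomal RNAs, small nucleolar ribonucleoproteins (snoRNPs) modify it, and a large set of assembly factors cut, fold and export it with the ribosomal proteins as small and large subunits. MYC, a transcription factor that binds the E-box sequence with its partner MAX, is known to raise transcription of many of these genes together with genes for polyamine, nucleotide and protein synthesis, and the activity of this programme follows cell growth in melanoma as in other tumours.

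The sort was visible in Tyr, and the identity of the cells in further pigment cell genes. Tyr, which encodes tyrosinase and so the step that limits melanin production, measured 908, 855 and 994 CPM in HPC replicates 1, 2 and 3, against 261, 62.2 and 238 CPM in LPC replicates 1, 2 and 3. The groups did not overlap, and Tyr passed the edgeR test with the replicate number as a block (adjusted p = 0.021) but not without it (adjusted p = 0.17). The pigment cell genes Dct, Tyrp1, Pmel, Mlana, Mitf and Sox10 were abundant in every library. Over these genes and Tyr, 7 in all, the median log2 fold change, HPC over LPC, was only 0.047, with 3 negative (edgeR). The 7 immune cell markers summed to 8.16 to 15.7 CPM in HPC libraries and 3.91 to 9.04 CPM in LPC libraries. The 7 markers of fibroblasts, endothelium and keratinocytes summed to 5.68 to 8.54 CPM in HPC libraries and 10.2 to 17.1 CPM in LPC libraries. Of these, Ptprc, Cd3e, Itgam, Cdh5, Krt5 and Krt14 had no read. The part of such cells in the results was not tested. Library totals were 18131623 to 22186743 reads in HPC and 14695822 to 18810435 reads in LPC.

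The 35 genes moved up and down together across the 6 libraries, and they did so by replicate number more than by pigment. Summed over the 35 genes, the level was 5488, 5824 and 4225 CPM in HPC replicates 1, 2 and 3, against 6989, 6256 and 4393 CPM in LPC replicates 1, 2 and 3. The libraries numbered 3 were the lowest of their group on either side of the sort, and LPC replicate 1 was the highest of all. Relative to each gene's mean over the 6 libraries, the median member stood at 0.0048, 0.096 and -0.33 on the log2 scale in HPC replicates 1, 2 and 3, and at 0.38, 0.13 and -0.31 in LPC replicates 1, 2 and 3. The same median over all 11921 tested genes lay between 0.00056 and 0.023 in every library.

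**Figure D1:**
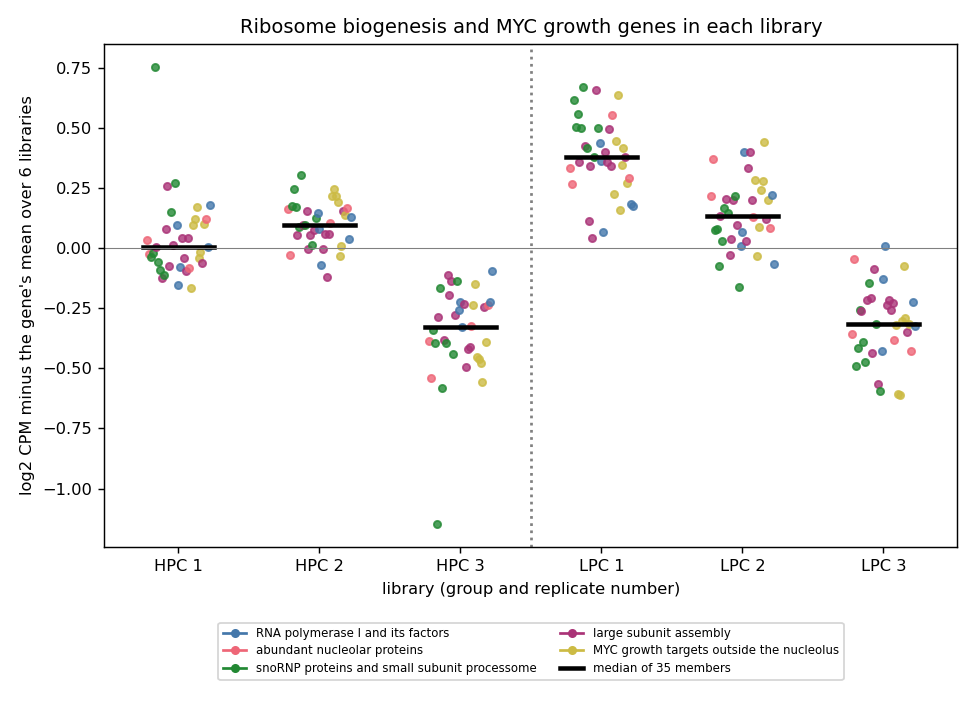
Each point is 1 of the 35 genes in 1 library, plotted as log2 CPM minus the gene's own mean over the 6 libraries; colours mark the genes' roles, black bars the median of the 35, and HPC libraries stand left of the dotted line. The medians of both libraries numbered 3 lie near -0.3, and that of LPC replicate 1 at 0.38.

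In 32 of the 35 genes (91.4%), both libraries numbered 3 were below all 4 others, against 14.7% of all tested genes. The lowest library was HPC replicate 3 for 19 genes and LPC replicate 3 for 16, and the highest was LPC replicate 1 for 25. On average over both groups, number 3 lay below numbers 1 and 2 for all 35 genes, by a median difference of -0.50 in log2 CPM (range -1.02 to -0.17), whereas the median over all tested genes was 0.017. Number 3 was singled out after these values were seen, so the figures describe these libraries and carry no test. The labels do not say what the numbers stand for. Mitochondrial genes took 3.21%, 2.22% and 2.07% of reads in HPC replicates 1, 2 and 3. In LPC replicates 1, 2 and 3 they took 2.46%, 2.36% and 2.56%. Number 3 thus had the lowest share of HPC and the highest of LPC. The totals of the libraries numbered 3, 19721577 reads in HPC and 14881833 reads in LPC, lay between those of numbers 1 and 2 of their group. A link of these measures to the level of the 35 genes was not tested.

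The variance of log2 CPM of each gene over the 6 libraries was divided into a share with pigment group, a share with replicate number and a rest. The number has more levels than the group, which by itself favours a larger share, so the shares are set beside those of all genes. Among the 35 genes, the median share was 76.2% with replicate number and 9.06% with pigment group, against 52.4% and 16.5% among all tested genes. For 34 of the 35, the number took more than the group, against 8587 of the 11921 tested genes. Polr1c was the exception among the 35. Tested across all genes in the fit with the replicate number as a term, Nme1 (adjusted p = 0.048) and Eif5a (adjusted p = 0.042) differed between numbers (edgeR quasi-likelihood test). These 2 of 35 genes are 5.71%, and 3.18% of all tested genes passed. Across the 6 libraries, 593 of the 595 pairs of members had a positive correlation of log2 CPM, with a median r of 0.84. The 6 points of each pair share libraries and scaling, so this r is a description.

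**Figure D2:**
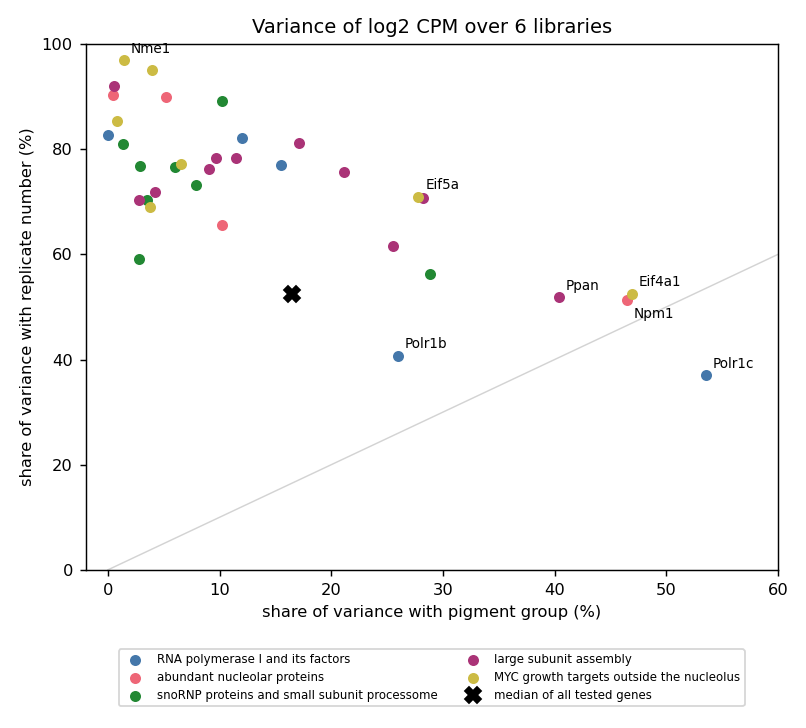
Each point is 1 of the 35 genes, placed by the percentage of its log2 CPM variance over 6 libraries that goes with pigment group (x axis) and with replicate number (y axis); the cross is the median of all tested genes and the grey line marks equal shares. Polr1c is the only gene of the 35 below the line; Npm1, Eif4a1 and Ppan have the next largest group shares.

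Between HPC and LPC, none of the 35 genes passed the test on all 6 libraries (edgeR quasi-likelihood test, adjusted p from 0.53 to 1.00). The background was low as well, with 0.0419% of all tested genes called, all lower in HPC. At an unadjusted p under 0.05 there was 1 member, Polr1c, lower in HPC, against 4.31% of all tested genes lower. DESeq2 without the block called 0 of the 35, against 1.88% of the genes it tested, and limma-voom called 0, against 0.0419%. Log2 fold changes, HPC over LPC, ran from -0.45 for Ppan to 0.13 for Rrn3, with a median of -0.14 against -0.0091 over all tested genes. They were negative in 28 of the 35 (80.0%), against 51.8% of all tested genes. Standard errors (SE) ran from 0.12 to 0.45, and for 34 of the 35 genes the 95% interval held 0. The interval lay between -1 and 1, a 2-fold difference in either direction, for 34 of the 35, Fbl being the exception. In bulk RNA of this kind, fewer cells with a high level and less RNA per cell cannot be told apart.

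**Figure D3:**
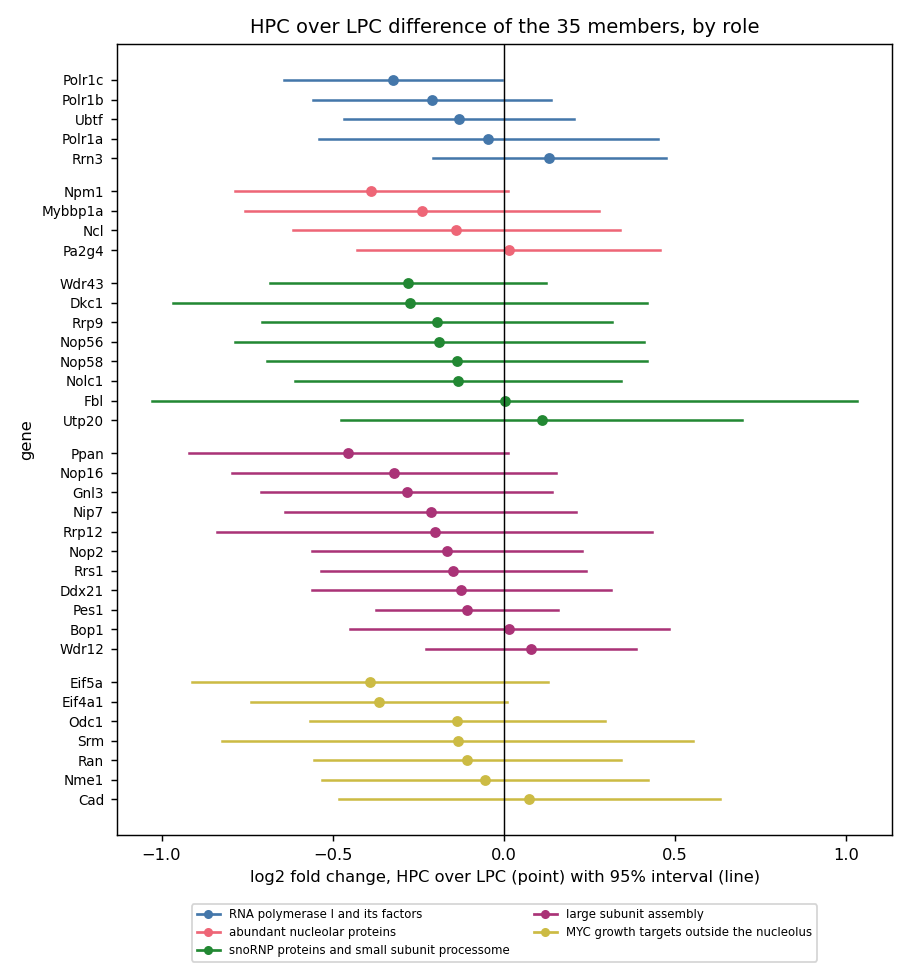
Points are log2 fold changes, HPC over LPC, of the 35 genes and lines their 95% intervals from edgeR, grouped by role from RNA polymerase I at the top to MYC growth targets outside the nucleolus at the bottom. Most points lie left of 0, and all intervals except that of Polr1c reach 0.

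Fitting the replicate number as a block, which compares equally numbered libraries, left the edgeR count at 0 of 35, against 2.52% of all tested genes called. At an unadjusted p under 0.05 it gave 8 members (22.9%), all lower in HPC, against 8.66% of all tested genes. They were Npm1, Gnl3, Wdr43, Polr1c, Nop16, Ppan, Eif4a1 and Eif5a, with edgeR adjusted p from 0.080 to 0.25. DESeq2 with the block called 2 of the 35, Npm1 (adjusted p = 0.023) and Eif5a (adjusted p = 0.035), both lower in HPC, against 4.36% of the genes it tested called in either direction and 1.61% called lower. Between equally numbered libraries, HPC was lower in all 3 pairs for 15 of the 35 genes (42.9%), against 21.3% of all tested genes, and higher in all 3 for Rrn3 only, against 19.6% of all tested genes.

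The pairs were unequal. The median member differed by -0.35 in log2 CPM between HPC replicate 1 and LPC replicate 1, with 32 of 35 genes lower in HPC. The median difference was -0.039 between the libraries numbered 2 (21 of 35 lower in HPC) and -0.024 between those numbered 3 (19 of 35 lower). Leaving out LPC replicate 1 moved the median log2 fold change of the 35 to 0.0049, with 16 of 35 negative, whereas leaving out LPC replicate 3 moved it to -0.32, with 33 of 35 negative. Without HPC replicate 3 it was -0.062 and without HPC replicate 2 it was -0.25. The difference of the list as a whole therefore moved by more than 1.5 times with any of these 4 libraries.

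**Figure D4:**
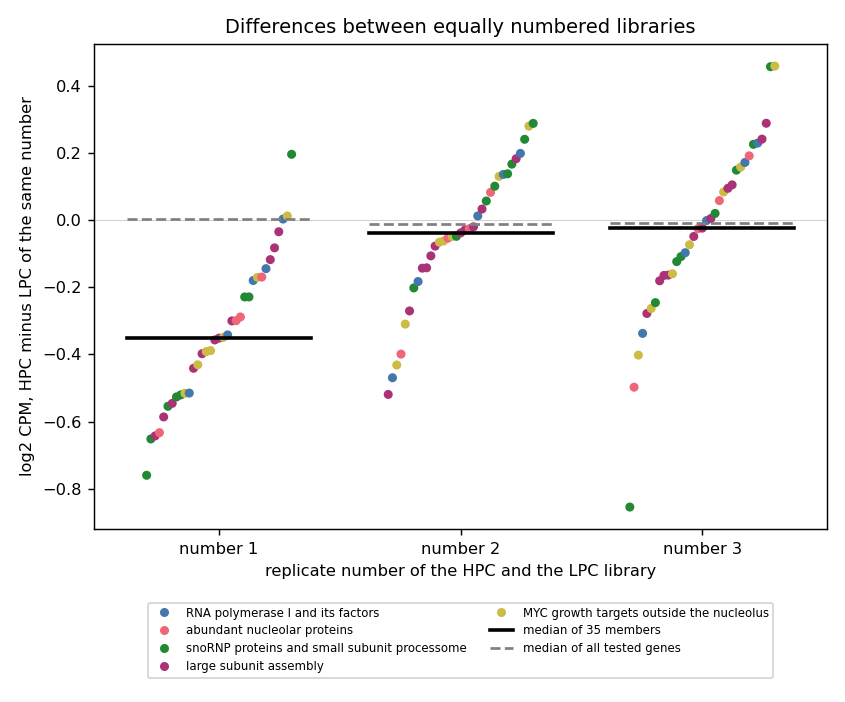
Points are the differences in log2 CPM, HPC minus LPC, of the 35 genes between libraries of equal replicate number, sorted within each number and coloured by role; black lines are the medians of the 35 and dashed lines those of all tested genes. The median is -0.35 for number 1 and close to 0 for numbers 2 and 3.

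RNA polymerase I was represented by its largest subunit gene Polr1a, the second-largest Polr1b, the subunit Polr1c that it shares with RNA polymerase III, and the initiation factors Ubtf and Rrn3. Polr1c measured 75.3, 75.7 and 63.3 CPM in HPC replicates 1, 2 and 3, against 83.3, 104.8 and 80.0 CPM in LPC replicates 1, 2 and 3. Of the 35 genes it alone had groups that did not overlap (2.86%, against 7.18% of all tested genes with HPC below LPC). Its log2 fold change was -0.32 (SE 0.14, 95% interval -0.64 to -0.0047, edgeR adjusted p = 0.53). Rrn3, which links polymerase I to its promoter and is the gene of the set with the highest fold change, was at 106, 103 and 88.0 CPM in HPC, against 106, 89.8 and 75.1 CPM in LPC. HPC replicate 1 and LPC replicate 1 were almost level, and the groups overlapped (log2 fold change 0.13, SE 0.15). Polr1a was at 170.1, 176 and 133 CPM in HPC, against 216, 160.1 and 118 CPM in LPC. Its highest and its lowest library were both LPC, and its log2 fold change was -0.044 (SE 0.22). Polr1b and Ubtf, which bends the ribosomal DNA promoter, had log2 fold changes of -0.21 (SE 0.15) and -0.13 (SE 0.15).

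Among the abundant nucleolar proteins, Npm1 encodes nucleophosmin, a chaperone of the granular outer layer of the nucleolus. Npm1 measured 485, 484 and 339 CPM in HPC replicates 1, 2 and 3, against 593, 639 and 479 CPM in LPC replicates 1, 2 and 3. Each HPC library lay below the LPC library of its number, but LPC replicate 3 lay just below HPC replicates 1 and 2. The means were 436 ± 84.2 CPM for HPC, against 570.3 ± 82.4 CPM for LPC (SD, n = 3 each), and the log2 fold change was -0.39 (SE 0.17, 95% interval -0.79 to 0.013, edgeR adjusted p = 0.555 without and 0.080 with the block). With DESeq2 and the block it was -0.39 (SE 0.12, adjusted p = 0.023), and its edgeR adjusted p with the block and the pair numbered 1 left out was 3.0e-05 in a fit with only 1 residual degree of freedom. That fit called 2947 genes among all genes. Npm1 has 5 processed pseudogenes of at least 95% identity in the annotation, so some of its reads may be assigned elsewhere. Of these copies, 1 was among the deposited genes, with 108 reads over all 6 libraries, against 54096 for Npm1.

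Ncl, which encodes nucleolin, an RNA-binding protein of the nucleolus, was at 1060.5, 1159.7 and 794 CPM in HPC, against 1305, 1204 and 809 CPM in LPC. The libraries numbered 3 were almost level and well below the rest, and the log2 fold change was -0.14 (SE 0.21). Mybbp1a, a nucleolar MYB-binding protein that acts on ribosomal RNA synthesis, was at 227, 258 and 192 CPM in HPC, against 352, 263 and 185 CPM in LPC. LPC replicate 1 was the highest by a wide margin, and both libraries numbered 3 lay below all others. Pa2g4, an ERBB3-binding growth regulator found in pre-ribosomal particles, had a log2 fold change of 0.015 (SE 0.19).

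**Figure D5:**
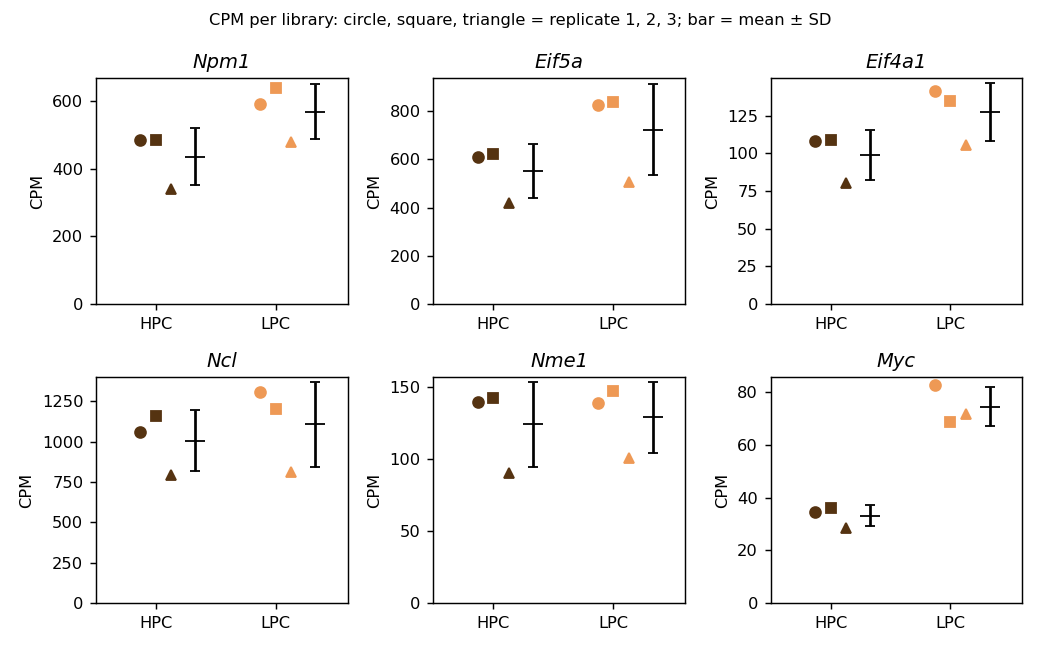
Panels give CPM of Npm1, Eif5a, Eif4a1, Ncl, Nme1 and Myc in each library, with HPC left of LPC and circles, squares and triangles for replicates 1, 2 and 3; the bar beside each group is its mean ± SD (n = 3). In the 5 members the triangle is the lowest point of its group, whereas the HPC and LPC points of Myc are far apart.

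Of the 8 snoRNP and small subunit genes, 6 had negative log2 fold changes. Nop56 and Nop58, core proteins of the box C/D particles that guide RNA methylation, had log2 fold changes of -0.19 (SE 0.26) and -0.14 (SE 0.24). Nop56 was at 152, 176 and 123 CPM in HPC, against 238, 164 and 111 CPM in LPC, and LPC held both its highest and its lowest value. Dkc1, the dyskerin pseudouridine synthase of the box H/ACA particles, was at 66.0, 86.7 and 46.9 CPM in HPC, against 112, 78.8 and 50.6 CPM in LPC. The spread of Dkc1 within LPC exceeded the difference of the group means (log2 fold change -0.27, SE 0.30). Fbl, the gene of the methyltransferase fibrillarin, had 549 reads in all 6 libraries together, the fewest of the set, and its log2 fold change of 0.0028 had an SE of 0.45. Nolc1, a snoRNP chaperone, Rrp9, a protein of the U3 particle, and Wdr43, a small subunit assembly factor, had log2 fold changes of -0.13, -0.19 and -0.28 (SE 0.21, 0.22 and 0.18). Utp20, a large scaffold of the small subunit processome, was at 57.8, 52.4 and 43.7 CPM in HPC, against 67.8, 42.9 and 31.8 CPM in LPC. HPC was lower in the pair numbered 1 and higher in the others (log2 fold change 0.11, SE 0.26).

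Of the 11 factors grouped with large subunit assembly, 9 had negative log2 fold changes. Ppan, the mammalian counterpart of a yeast factor of large subunit maturation, had the most negative value of the 35. It was at 35.1, 34.5 and 28.0 CPM in HPC, against 52.8, 49.4 and 31.4 CPM in LPC (log2 fold change -0.45, SE 0.20, edgeR adjusted p = 0.55 without and 0.11 with the block). LPC replicate 3 lay inside the HPC range, and the other 2 LPC libraries above it. Nop16, a nucleolar protein and known MYC target, was at 25.8, 27.7 and 18.9 CPM in HPC, against 34.1, 33.4 and 22.9 CPM in LPC, with HPC lower in each pair (log2 fold change -0.32, SE 0.21). Gnl3 (nucleostemin, a nucleolar GTPase of proliferating cells) and Nip7 also had HPC lower in each pair, with log2 fold changes of -0.28 and -0.21 (SE 0.19 each). Pes1, Bop1 and Wdr12 form the PeBoW complex, which is needed to process the large subunit RNAs, and their log2 fold changes were -0.11, 0.017 and 0.079 (SE 0.12, 0.20 and 0.13). These 3 had the smallest differences of the 11 large subunit factors. Nop2, an RNA methyltransferase, Rrs1, Ddx21, an RNA helicase that also acts with polymerase I, and Rrp12, an export factor of ribosomal subunits, had log2 fold changes of -0.17, -0.15, -0.12 and -0.20.

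Among MYC growth targets outside the nucleolus, the 2 translation factors had more negative fold changes than the 5 others, a difference that was not tested. Eif5a, the hypusine-carrying translation factor, measured 612, 622 and 421 CPM in HPC replicates 1, 2 and 3, against 826, 839 and 505 CPM in LPC replicates 1, 2 and 3. HPC was lower in each pair, and LPC replicate 3 lay within the HPC range. Means were 552 ± 113 CPM for HPC, against 723 ± 189 CPM for LPC (SD, n = 3 each), and the log2 fold change was -0.39 (SE 0.23, edgeR adjusted p = 0.68 without and 0.089 with the block). Eif4a1, the RNA helicase of translation initiation, was at 108, 109 and 80.0 CPM in HPC, against 141, 135 and 106 CPM in LPC (log2 fold change -0.36, SE 0.16, edgeR adjusted p = 0.55 without and 0.084 with the block). It too was lower in HPC in each pair, by -0.39, -0.31 and -0.40 in log2 CPM for numbers 1, 2 and 3.

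The metabolic targets were nearer to 0. Odc1 and Srm, enzymes of polyamine synthesis that provides the substrate for hypusine, had log2 fold changes of -0.14 (SE 0.19) and -0.13 (SE 0.30). Cad, which starts pyrimidine synthesis, was at 181, 201 and 153 CPM in HPC, against 231, 165 and 111 CPM in LPC. HPC was lower in the pair numbered 1 and higher in the pairs numbered 2 and 3 (log2 fold change 0.076, SE 0.24). Nme1, a nucleoside diphosphate kinase, was at 139.6, 142 and 90.0 CPM in HPC, against 138, 147 and 101 CPM in LPC (log2 fold change -0.055, SE 0.21). The 4 libraries numbered 1 and 2 lay between 138 and 147 CPM, and both libraries numbered 3 were lower. Ran, the GTPase of nuclear transport and of ribosome export, had a log2 fold change of -0.11 (SE 0.20).

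Myc itself differed between the groups at every replicate number. As in most members, HPC replicate 3 was the lowest of its group and LPC replicate 1 the highest of all. Unlike in most members, the lowest of LPC was replicate 2. The share of Myc variance with the replicate number was not calculated. Its level was 34.6, 36.2 and 28.5 CPM in HPC replicates 1, 2 and 3, against 83.0, 68.9 and 71.9 CPM in LPC replicates 1, 2 and 3. That is a 2.25-fold lower level in HPC, with a log2 fold change of -1.17 (SE 0.13) and an adjusted p of 0.046 from edgeR. The call ended with RLE scaling (adjusted p = 0.0505), with values corrected for transcript length and GC content (0.094), without HPC replicate 1, 2 or 3 or LPC replicate 2 (0.18 to 0.23), and with the block without the pair numbered 2 (0.105), while the log2 fold change stayed between -1.30 and -1.07 over all alternatives run (adjusted p from 2.2e-24 to 0.23). Beside this 2.25-fold difference, the 2 members with the largest differences were Ppan, 1.37-fold lower in HPC, and Eif5a, 1.31-fold lower, neither past the test.

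A wider set of 186 genes of the same machinery, in 7 lists, was read from the same fit. None passed the test without or with the block (edgeR), and DESeq2 without the block and limma-voom called 0. At an unadjusted p under 0.05 there were 6, all lower in HPC (3.23%, against 4.31% of all tested genes). With the block there were 24 lower (12.9%, against 8.66%) and 1 higher. DESeq2 with the block called 1 lower, Imp3, against 1.61% of the genes it tested. Imp3, a U3 particle protein of the small subunit processome, measured 40.5, 43.4 and 40.4 CPM in HPC replicates 1, 2 and 3, against 52.0, 64.2 and 55.1 CPM in LPC replicates 1, 2 and 3 (log2 fold change -0.46, SE 0.12, edgeR adjusted p = 0.25 without and 0.054 with the block, DESeq2 adjusted p = 0.039 with it). The groups did not overlap, HPC replicates 1 and 3 were almost level, and LPC replicate 1 was the lowest of its group.

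Over the 7 lists, 146 of the 186 genes had negative log2 fold changes (78.5%, against 51.8% of all tested genes). By list, 42 of 46 further small subunit genes were negative (median -0.067), as did 36 of 46 further large subunit genes (median -0.14), 11 of 14 snoRNP partners (median -0.13) and 15 of 16 other RNA polymerase I genes (median -0.17). Of the other MYC growth targets, 24 of 28 were negative (median -0.12), and of the RNA exosome genes 11 of 14 (median -0.073). RNA polymerase III genes had a positive median of 0.049, with 7 of 22 negative. These medians moved with single libraries as those of the members did. Without LPC replicate 1 the median was 0.040 for the small subunit list, 0.052 for the exosome list and -0.010 for the large subunit list. Without HPC replicate 3 it was 0.011 for the small subunit list and 0.025 for the exosome list. Without LPC replicate 3 it was -0.21 for the small subunit list, -0.20 for the exosome list and -0.23 for the large subunit list. Within the polymerase III list, Maf1, the repressor of polymerase III, averaged 94.5 ± 7.04 CPM in HPC libraries, against 125 ± 23.5 CPM in LPC libraries (log2 fold change -0.40, SE 0.15, adjusted p = 0.47), and Gtf3c1, a subunit of the polymerase III factor TFIIIC, 238 ± 21.5 CPM in HPC libraries, against 199.5 ± 12.95 CPM in LPC libraries (log2 fold change 0.26, SE 0.11, adjusted p = 0.54; edgeR, SD, n = 3 each). Nop53 of the large subunit list, Polr1d and Polr2h, subunits of polymerase I that are shared with other polymerases, and Sms, the spermine synthase gene, had non-overlapping groups with HPC below LPC and log2 fold changes of -0.31, -0.29, -0.36 and -0.29. None of these genes passed. Non-overlap with HPC below LPC held for 1 of 46 small subunit and 1 of 46 large subunit genes. It held for 2 of 16 polymerase I, 1 of 22 polymerase III and 1 of 28 MYC growth genes. For snoRNP partners and exosome genes it held for 0 of 14 each, against 7.18% of all tested genes. The reverse held only for 2 of the polymerase III genes, against 854 of all 11921 tested genes. Like the members, all 7 lists had their most negative median difference in the pair numbered 1, from -0.33 for other MYC growth targets to -0.021 for polymerase III genes.

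Mitosis markers had another pattern over the libraries. Their median deviation was 0.15, 0.56 and 0.18 in log2 CPM in HPC replicates 1, 2 and 3, against 0.18, -0.19 and -0.90 in LPC replicates 1, 2 and 3. LPC replicate 3 was thus the lowest for them by a wide margin, whereas HPC replicate 3 was not low. All 10 had positive log2 fold changes (median 0.56), and 0 passed the edgeR test without or with the block (4 at an unadjusted p under 0.05 without it, against 5.06% of all tested genes higher, and 9 with it, against 10.1%), while DESeq2 with the block called 5 higher, against 2.75% of the genes it tested. Ccnb1, the mitotic cyclin, averaged 76.8 ± 14.4 CPM in HPC libraries, against 47.6 ± 15.1 CPM in LPC libraries, and Cenpe, a kinetochore motor, 158 ± 25.6 CPM in HPC libraries, against 103 ± 30.9 CPM in LPC libraries (SD, n = 3 each). A link between these levels and those of the 35 genes was not tested.

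MYC binds CACGTG, so the promoters of the 35 genes were searched for these letters, which read the same on both strands. RefSeq promoter windows of GRCm38.p6, 250 bases before to 50 bases after each annotated start, matched 29 of the 35 genes by symbol; Bop1, Fbl, Npm1, Rrp12, Rrs1 and Srm were not matched. At least 1 window held CACGTG in 10 of the 29 genes (34.5%), against 12.0% of the 8929 tested genes with a window, and per window of 300 bases the share was 31.0% of 42, against 10.0% of 11497. Genes can have several windows, which may overlap. The list was chosen in part as known MYC targets, so a higher share may follow from that choice alone and carries no test. A part of MYC in the shared movement of the genes was not tested. The 10 genes with a match had a median log2 fold change of -0.14, and the 19 without one also had -0.14. The following lines give the match in capitals with up to 20 bases on each side, 5′ to 3′ on the gene's strand, for at least 1 gene of each role, to show what surrounds it. Where a gene had 2 matches, 1 is printed.
Rrn3: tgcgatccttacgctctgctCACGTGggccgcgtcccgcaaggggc
Mybbp1a: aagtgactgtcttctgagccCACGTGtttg
Nop2: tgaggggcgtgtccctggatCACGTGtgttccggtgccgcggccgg
Pes1: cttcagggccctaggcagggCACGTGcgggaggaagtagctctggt
Wdr43: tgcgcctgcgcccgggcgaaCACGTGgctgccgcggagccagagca
Nme1: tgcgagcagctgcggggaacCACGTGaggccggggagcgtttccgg
Ran: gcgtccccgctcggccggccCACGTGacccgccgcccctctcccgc
Eif5a: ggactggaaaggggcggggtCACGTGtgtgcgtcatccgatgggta
Eif4a1: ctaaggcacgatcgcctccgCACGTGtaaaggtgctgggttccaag

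The printed match lay 48 bases upstream of the start in Rrn3 (chr16:13780631-13780676, plus strand), 60 bases upstream in Nop2 (chr6:125131803-125131848, plus strand) and 18 bases upstream in Nme1 (chr11:93968265-93968310, minus strand). In Pes1 (chr11:3963957-3964002, plus strand) and Wdr43 (chr17:71616212-71616257, plus strand) it lay 3 and 18 bases downstream of the RefSeq start. It lay 118 bases upstream in Ran (chr5:129020018-129020063, plus strand), 185 upstream of 1 of several starts in Eif5a (chr11:69921435-69921480, minus strand) and 189 upstream in Eif4a1 (chr11:69672587-69672632, minus strand). In Mybbp1a (chr11:72441347-72441376, plus strand) it lay 41 bases downstream, close to the end of the window. Rrn3 held a second match 215 bases upstream (chr16:13780464-13780509), Nme1 one 29 bases upstream of another start (chr11:93968029-93968074) and Eif5a one 178 bases upstream of another start (chr11:69920783-69920828). Utp20 held a match 38 bases downstream. Eif5a and Eif4a1, which were lower in HPC in each pair, held CACGTG as did Rrn3, the only gene higher in HPC in each pair. Ppan, Polr1c and Nop16, also lower in HPC in each pair, held none within this window, which says only that these letters are not in it. The whole Eif4a1 window (chr11:69672374-69672673, minus strand) is given as an example of the context, with the match in capitals.
Eif4a1: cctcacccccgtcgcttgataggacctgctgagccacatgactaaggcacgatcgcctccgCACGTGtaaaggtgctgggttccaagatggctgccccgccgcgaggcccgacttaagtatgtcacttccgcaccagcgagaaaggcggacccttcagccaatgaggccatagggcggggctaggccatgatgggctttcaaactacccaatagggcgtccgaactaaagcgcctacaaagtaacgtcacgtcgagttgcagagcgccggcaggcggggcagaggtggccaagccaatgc

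The 5 genes with the most negative log2 fold changes among those lower in HPC in each pair sit at chr11:33152287-33163206 (Npm1, minus strand), chr11:69916714-69921958 (Eif5a, minus), chr11:69666936-69672423 (Eif4a1, minus), chr9:20888175-20892178 (Ppan, plus) and chr17:46243920-46248054 (Polr1c, minus) in the GENCODE M21 annotation of GRCm38. None of these 5 overlaps a gene on the opposite strand, whereas 10 of the 35 genes do, among them Nop56 with Idh3b and Gnl3 with Pbrm1. On the same strand, Eif4a1 overlaps 3 annotated genes and Ppan 2, while Npm1, Eif5a and Polr1c overlap none. Processed pseudogenes of at least 95% identity over at least 300 bases were annotated for 10 of the 35 genes, Npm1, Nop56, Fbl, Odc1, Eif4a1 and Ran among them. Counts of these genes are uncertain to that extent, since no source used here gives the counting rules.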

How the data were processed

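RNA of sorted B16-F3 cells, 3 HPC and 3 LPC libraries, was sequenced from transcript 3′ ends, per the labels' protocols. The authors deposited raw counts per gene, not normalized, in 1 table. STAR and GRCm38 are named in the submitters' processing notes; no source used here gives the counting program, annotation, strand setting or use of molecular identifiers. Totals were 14695822 to 22186743 reads per library, with 3 libraries per group. What limits precision was not tested. Here, genes were filtered with filterByExpr and tested with edgeR 4.0.16 (R 4.3.3; TMM scaling, quasi-likelihood test, group as the only term, Benjamini-Hochberg adjustment over 11921 genes, threshold 0.05). SE come from the F statistic and intervals from its degrees of freedom. log2 CPM values use a prior count of 2. Alternatives were other scalings, no filter, DESeq2 1.42.0, limma-voom (limma 3.58.1), left-out libraries and the replicate number as a block. A length and GC correction and the test of the replicate number were added after the data were seen. Simulated data were used to try edgeR, DESeq2 and limma-voom, each without and with the block. The simulated differences were larger than that of any member. The other scalings, no filter, left-out libraries, the length and GC correction and the test of the replicate number were not tried in this way. Equally numbered libraries deviated together from their group means (correlations 0.42, 0.35 and 0.65 for numbers 1, 2 and 3), all above the minimum of 0.1 for pairing. Of the unequally numbered libraries, HPC replicate 2 with LPC replicate 1 also passed that minimum (0.20), and all other such correlations were negative. The hint of pairing comes from the data, not from the labels. The members and lists were chosen with earlier results of these data known. Named besides the members are, per list, genes called without or with the block and up to 2 with the largest difference among those with a mean of at least 5 CPM and non-overlapping groups. By that rule Pdgfra, a fibroblast marker gene, averaged 4.31 ± 1.24 CPM in HPC libraries, against 9.47 ± 4.03 CPM in LPC libraries (SD, n = 3 each; edgeR adjusted p = 0.045 with the block). Of 218 wider genes listed, 217 were matched.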

Additional observations from a re-analysis of the deposited data

How the results depend on the processing

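Over all genes, 5 were called (edgeR) and 4 to 6 with RLE, upper quartile or library size scaling, limma-voom or the length and GC correction, against 28 with no filter, 224 with DESeq2, 301 with the replicate block, 500 with DESeq2 and the block and 307 with the block and that correction. With libraries or pairs left out, counts ran from 0 to 2947; the highest came from the block without the pair numbered 1, with 1 residual degree of freedom. Members called were 2 with DESeq2 and the block, and 0 to 7 with libraries or pairs left out. All 7 came from that same fit (Npm1, Polr1c, Ppan, Eif4a1 and Eif5a lower in HPC, Utp20 and Cad higher). These 7 of 35 stand beside 2947 genes called among all genes in that fit, so the calls are not particular to the members. All other alternatives gave 0. The members' median log2 fold change ran from -0.32 to 0.0049 with libraries or pairs left out. Fold changes close to 0 changed sign: Fbl to -0.023 (upper quartile), -0.020 (library size), -0.15 (limma-voom), -0.082 (block), -0.11 (DESeq2 with the block) and -0.041 (block with length and GC correction), Bop1 to -0.011 and Pa2g4 to -0.014 (upper quartile), to -0.0040 and -0.0053 (library size), Wdr12 to -0.043 and -0.036 (length and GC correction without and with the block) and Srm to 0.069 (that correction with the block). With libraries or pairs left out, sign changes gave ranges of -0.16 to 0.21 for Bop1, -0.15 to 0.38 for Cad, -0.30 to 0.080 for Ddx21, -0.52 to 0.040 for Dkc1, -0.44 to 0.37 for Fbl, -0.45 to 0.027 for Mybbp1a, -0.32 to 0.0061 for Ncl, -0.20 to 0.13 for Nme1, -0.32 to 0.15 for Nolc1, -0.42 to 0.14 for Nop56, -0.34 to 0.11 for Nop58, -0.30 to 0.017 for Odc1, -0.16 to 0.18 for Pa2g4, -0.23 to 0.20 for Polr1a, -0.27 to 0.046 for Ran, -0.46 to 0.14 for Rrp12, -0.28 to 0.039 for Rrs1, -0.39 to 0.21 for Srm and -0.11 to 0.46 for Utp20. The cause was not tested. Fbl had 549 reads in all 6 libraries together, the fewest of the 35, and the largest SE (0.45); what limits its precision was not tested.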
